A study of Mus musculus with 2 samples.

Results

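TRP channels, Piezo channels and the store-operated Ca2+ entry proteins are among the routes by which cations enter an arterial wall cell without a voltage-gated Ca2+ channel. The 9 genes described here, called channel genes although Stim1 encodes a Ca2+ sensor, are Trpc1, Trpc6, Trpm4, Trpm7, Trpv4, Pkd2, Piezo1, Orai1 and Stim1. They are a list of symbols drawn up with earlier results of these data known, with no rule on their values, and each was matched to 1 Ensembl mouse gene identifier among 55573 listed genes. All 9 had reads in both libraries, from 120 reads in both together for Trpc6 to 3637 for Stim1.

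TRP channels are tetramers that open in response to receptor signaling, lipids, heat, stretch or intracellular Ca2+. In arteries the inward current of some of them, such as TRPM4, is known to depolarize the myocyte. Piezo channels are opened by membrane tension. In store-operated entry, STIM proteins sense the Ca2+ content of the endoplasmic reticulum and open ORAI channels in the plasma membrane once the store is empty.

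RNA was measured in mesenteric arteries of wild type C57BL/6 mice at 10 weeks of age. The arteries were perfused with 5 mM K+ (control) or with 60 mM K+, which depolarizes the myocytes. Per the study's methods, all solutions held tetrodotoxin, so that high K+ would not activate autonomic nerves. There was 1 library per condition, each pooled from 2 mice, and the labels give 60 min in solution for both. The study's methods also describe control tissue taken from the distal arteries after incubation without perfusion, before the rest was perfused with high K+. The sources used here do not settle which holds for these libraries. Under the second, the libraries may share mice, and the arterial segment, the flow and the time in solution cannot be told apart from K+. With 10480918 reads on genes in the 5 mM library and 11289598 in the 60 mM library, every interval given here covers counting error only, and no difference has a replicate check.

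Differences are log2(fold-change), 60 mM over 5 mM K+, after scaling by the trimmed mean of M-values (TMM). A gene was called when it passed the thresholds of the study, an absolute log2(fold-change) above 1 and a q-value under 0.005. The q-value came from the random-sampling test of DEGSeq, which compares these libraries and not the conditions. The study names the DEGSeq package but not which of its tests was run. The random-sampling test was rebuilt here, and its calls need not be those of the study. By these thresholds 2.11% of the 21374 genes with reads were called higher in 60 mM K+ and 1.10% were called lower, 452 and 235 genes, which became 307 and 542 with scaling by total counts. Among the 9 channel genes, 1 was called higher, Trpv4, and 0 were called lower, a count too small to set against those shares. Scaling by total counts in place of TMM lowers every log2(fold-change) by 0.21, and with it Trpv4 is at 0.95, below the threshold.

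The sequences before the transcription start are shown for the 3 genes with the largest differences, Trpv4, Piezo1 and Pkd2, and for Trpc6, the gene whose window held a CArG box. They are the 250 bases upstream of the start in RefSeq (GRCm38.p6), written 5′ to 3′ on the strand of the gene, with motif matches in capitals.
Trpv4 (chr5:114658422-114658671, minus strand): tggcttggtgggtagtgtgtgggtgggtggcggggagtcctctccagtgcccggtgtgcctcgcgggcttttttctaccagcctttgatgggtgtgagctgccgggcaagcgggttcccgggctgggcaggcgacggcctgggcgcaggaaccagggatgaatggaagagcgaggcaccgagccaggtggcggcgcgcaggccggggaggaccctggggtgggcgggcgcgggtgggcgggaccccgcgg
Piezo1 (chr8:122551330-122551579, minus strand): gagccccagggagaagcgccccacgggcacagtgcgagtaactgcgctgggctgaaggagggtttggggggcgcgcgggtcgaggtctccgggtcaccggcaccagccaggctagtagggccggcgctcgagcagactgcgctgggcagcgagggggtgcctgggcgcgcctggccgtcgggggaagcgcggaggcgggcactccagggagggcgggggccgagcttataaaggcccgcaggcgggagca
Pkd2 (chr5:104459207-104459456, plus strand): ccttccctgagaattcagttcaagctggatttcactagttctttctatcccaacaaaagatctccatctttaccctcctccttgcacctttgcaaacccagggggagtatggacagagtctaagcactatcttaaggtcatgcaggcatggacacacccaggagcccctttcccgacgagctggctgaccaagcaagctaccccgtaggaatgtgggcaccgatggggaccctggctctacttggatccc
Trpc6 (chr9:8543892-8544141, plus strand): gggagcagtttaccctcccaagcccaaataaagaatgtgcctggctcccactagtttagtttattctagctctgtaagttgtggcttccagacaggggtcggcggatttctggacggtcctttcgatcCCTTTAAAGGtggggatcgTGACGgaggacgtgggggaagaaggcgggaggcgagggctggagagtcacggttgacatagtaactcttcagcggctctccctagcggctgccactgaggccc
Exact letters were searched on both strands from 250 bases upstream to 50 downstream of the start for 8 of the 9 genes. Trpm4 is not in the table of sequences used here. The motifs were the full cAMP response element (CRE) TGACGTCA, the CRE core TGACG, which the full one contains, the AP-1 site TGACTCA, the heat shock element GAANNTTC, the CArG box and the NF-kB site.

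The window of Trpv4 held none of these letters, nor did those of Piezo1 and Pkd2. The CRE core was found in 5 of the 8 windows, those of Trpc1, Trpc6, Trpm7, Orai1 and Stim1, of which none was called, and in 20.8% of all 32851 windows of the table. In the window of Trpc6 the CRE core lay from base -103 to -99, counted from the start, and a CArG box from -122 to -113, a motif held by 1.63% of all windows. The full CRE, the AP-1 site, the heat shock element and the NF-kB site were found in 0 of the 8 windows, against 1.79%, 5.20%, 7.86% and 8.46% of all windows. GC content of the 250 upstream bases ranged from 52.8% in Pkd2 to 78.4% in Stim1 and was 72.0% in Trpv4, with a median of 52.4% over the table. A match is a description of letters, and no match says nothing of binding outside these windows.

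Trpv4 encodes a Ca2+-permeable channel that opens with cell swelling, warmth and lipid mediators, and is known in both endothelium and vascular smooth muscle. Its reads numbered 845 in the control library and 1758 in 60 mM K+. In TMM-scaled CPM, reads per 1000000 reads of the TMM-scaled library size, this was 75.0 and 167 CPM. The rise was 2.23-fold (95% counting interval 2.05 to 2.43), or a log2(fold-change) of 1.16 (1.04 to 1.28). Of the 10738 genes whose reads summed to at least 100 over the libraries, 233 (2.17%) had a higher log2(fold-change). The gene lies on mm9 chromosome 5 from 115072161 to 115108430 on the minus strand, and no other gene of GENCODE vM1 overlaps it. Its nearest protein-coding neighbors, BC057022 with 5 and 15 reads and Gltp at 0.34 (0.20 to 0.49), were not called.

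Piezo1, the stretch-activated channel of endothelial and other cells, had the next largest difference. Its reads were 697 in control and 971 in high K+, a log2(fold-change) of 0.58 (0.44 to 0.72) that stayed below the threshold. On mm9 the gene (Fam38a in GENCODE vM1) lies on chromosome 8 from 125005598 to 125075229. There it overlaps Ctu2 on the opposite strand, at 0.47 with 183 and 236 reads. It also overlaps Gm20388 on the opposite strand, with 0 reads, and a U6 snRNA on the same strand, with 1 and 0 reads. The sources used here do not say whether counting used strand. The other Piezo gene, Piezo2, best known from sensory neurons, had 137 and 68 reads, a log2(fold-change) of -0.91 (-1.35 to -0.48) that was not called.

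Pkd2, which encodes polycystin-2 and carries mutations in polycystic kidney disease, lay furthest in the other direction. With 1593 reads in the control library and 1131 in 60 mM K+, it had a log2(fold-change) of -0.39 (-0.50 to -0.28). The gene lies on chromosome 5 from 104888469 to 104934838. Pkd1, whose product assembles with polycystin-2, was also lower, at -0.27 (-0.33 to -0.21) from 4985 and 3860 reads. Neither was called. The fold of Pkd1 divided by that of Pkd2, a ratio that no scaling of the libraries changes, was 1.09 (0.999 to 1.19), so that the unequal change of the pair was within counting error.

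Of the store-operated entry genes, Stim1 encodes the Ca2+ sensor of the store and Orai1 the pore of the channel. Stim1 (chromosome 7, 109416338 to 109585362) had 1764 and 1873 reads, a log2(fold-change) of 0.19 (0.09 to 0.28), which turns to -0.021 with total counts. Orai1 (chromosome 5, 123465083 to 123480459) had 233 and 265 reads, a log2(fold-change) of 0.29 (0.03 to 0.55), and its first bases overlap those of Kdm2b on the opposite strand. The fold of Stim1 divided by that of Orai1 was 0.934 (0.770 to 1.13), so that the pair could not be told apart at this depth.

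The 4 remaining genes had counting intervals that included 0. Trpm7, a channel fused to a kinase and known for Mg2+ balance, had 989 and 842 reads, a log2(fold-change) of -0.13 (-0.27 to 0.0033), on chromosome 2 from 126617301 to 126701966. Trpm4, the Ca2+-activated monovalent cation channel linked to myogenic depolarization, had 630 and 577 reads at -0.03 (-0.19 to 0.14), on chromosome 7 from 52558002 to 52589150. Trpc1 and Trpc6 encode subunits of receptor-operated channels, and Trpc6 opens with diacylglycerol. Trpc1 had 238 and 205 reads at -0.11 (-0.39 to 0.16), on chromosome 9 from 95607046 to 95650777. Trpc6, on the same chromosome from 8544432 to 8680565, had the fewest reads, 64 and 56. Its log2(fold-change) of -0.09 also had the broadest interval of the 9, -0.64 to 0.45. A change of Trpc6 within these bounds was not detectable at this depth. Pseudogenes lie within Trpm4 (Rpl14-ps1, with 99 and 107 reads at 0.21) and within Trpm7 (Gm14212, with 0 reads), both on the opposite strand.

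**Figure D1:**
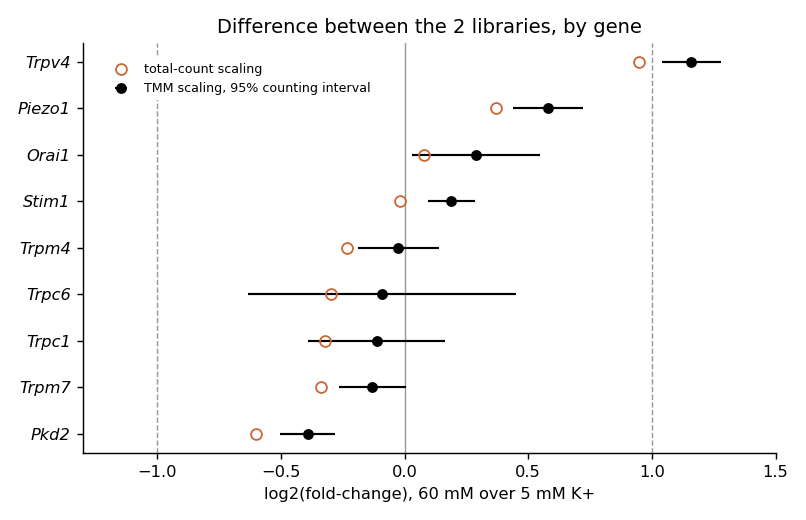
Log2(fold-change) of the 9 channel genes, 60 mM over 5 mM K+, from 1 library each. Filled points are TMM-scaled with 95% counting intervals, open points are scaled by total counts, and dashed lines mark the threshold of 1 in either direction. With TMM, Trpv4 at 1.16 lies past the threshold and the other 8 lie between -0.39 and 0.58.

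At the median the 9 genes lay at -0.03, and the 14829 genes with at least 10 reads at -0.0047. Without Trpv4 the other 8 ranged from -0.39 to 0.58 with a median of -0.06. The counting interval lay above 0 for 4 of the 9 genes, Trpv4, Piezo1, Orai1 and Stim1, and below 0 for 1, Pkd2. Among the 10738 genes with at least 100 reads it lay above 0 for 31.3% and below 0 for 22.8%, so that intervals away from 0 were common at these depths. With total counts the interval lay above 0 for 2 of the 9 genes, Trpv4 and Piezo1, and below 0 for 4, Trpc1, Trpm4, Trpm7 and Pkd2, against 16.5% and 45.1% of genes.

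**Figure D2:**
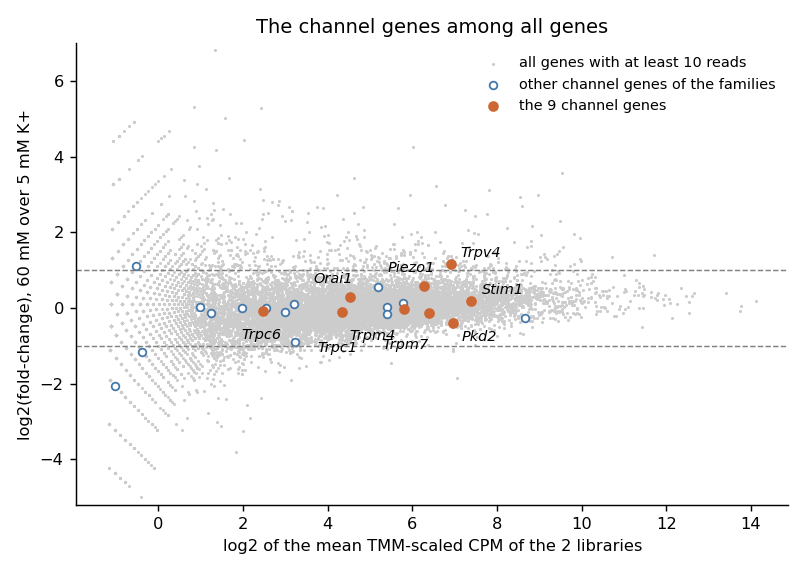
Log2(fold-change), 60 mM over 5 mM K+, against log2 of the mean TMM-scaled CPM, for all genes with at least 10 reads (gray), the 9 channel genes (filled) and the other channel genes of the same families (open). Dashed lines mark the threshold of 1, and of the 9 genes Trpv4 lies past it, at 1.16.

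Because the scaling moves all genes alike, the folds of the 9 genes were also compared with each other by the conditional odds ratio of their reads, in 36 pairs with unadjusted 95% intervals. The fold of Trpv4 was larger than that of each of the other 8 genes, and all 8 intervals left out 1. It was 1.49 times that of Piezo1 (1.31 to 1.70), 1.96 times that of Stim1 (1.76 to 2.18) and 2.93 times that of Pkd2 (2.62 to 3.28). Of the 28 pairs without Trpv4, 16 intervals left out 1. How often pairs of other genes do so at these depths was not computed. Piezo1 differed from Stim1 by 1.31 times (1.17 to 1.48), and its interval against Orai1, 0.996 to 1.51, included 1. Trpc1, Trpc6, Trpm4 and Trpm7 could not be told apart from each other.

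Levels were compared between genes per length, as deposited FPKM (fragments per kilobase of gene and 1000000 reads), which are scaled by total counts. In 5 mM K+ the order was Stim1 at 75.7 FPKM, Trpm7 at 39.6, Pkd2 at 36.1, Trpv4 at 35.1, Trpm4 at 25.2, Piezo1 at 19.1, Orai1 at 15.1, Trpc1 at 8.69 and Trpc6 at 1.96. By the 95% Poisson intervals of the reads, Pkd2 (34.4 to 37.9 FPKM) overlapped Trpm7 (37.2 to 42.1) and Trpv4 (32.7 to 37.5), and the other neighbors in this order did not overlap. Differences between levels were not tested. Stim1 was above 90.1% of the genes with at least 10 reads, and Trpc6 above 22.7%.

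In 60 mM K+ Stim1 was again highest at 74.6 FPKM, and Trpv4 followed at 67.7 FPKM. Trpm7 was at 31.3, Piezo1 at 24.7, Pkd2 at 23.8, Trpm4 at 21.4, Orai1 at 15.9, Trpc1 at 6.95 and Trpc6 at 1.59 FPKM. Trpv4 stood above 78.1% of genes in 5 mM K+ and above 89.0% in 60 mM K+. Here Pkd2 (22.4 to 25.2 FPKM) overlapped Piezo1 (23.2 to 26.3) and Trpm4 (19.7 to 23.2). Trpv4 (64.6 to 71.0) and Stim1 (71.3 to 78.1) did not overlap.

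**Figure D3:**
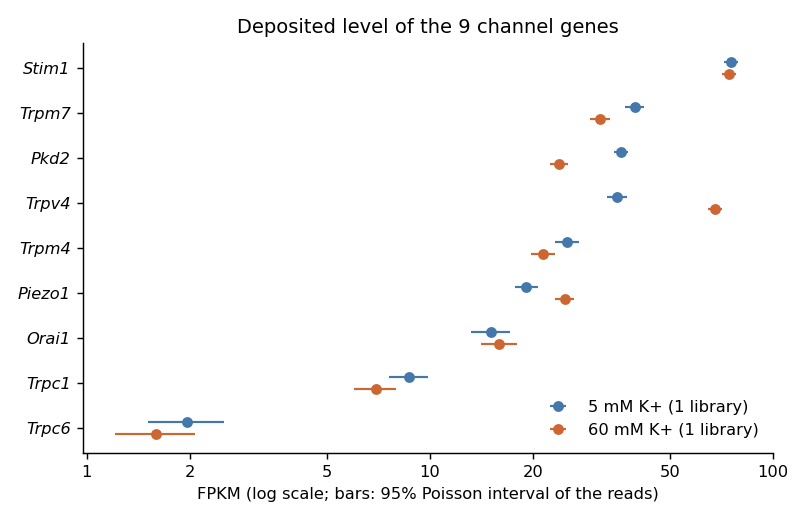
Deposited FPKM of the 9 channel genes on a log scale in the 5 mM K+ and the 60 mM K+ library, with 95% Poisson intervals of the reads. Trpv4 moves from 35.1 to 67.7 FPKM, close to Stim1 at 74.6, and Pkd2 from 36.1 to 23.8.

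The order depended on the gene length used. The lengths behind the FPKM came out as whole numbers of bases for all 21374 genes with reads, to within 0.01 of a base. For the 9 genes they ran from 1474 bases in Orai1 to 4210 in Pkd2. The union of the GENCODE vM1 exons was longer for 8 of the 9 genes, from 1.15 times the deposited length for Trpc1 to 4.75 times for Trpm7 (11315 against 2384 bases), and for Trpc6 it was 0.897 times that length. Over 13674 genes the median of this ratio was 1.96.

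With the exon union in place of the deposited length, Trpm7 moved from rank 2 to rank 6 in 5 mM K+ and Trpv4 from rank 4 to rank 2, at 19.8 RPKM (computed as FPKM is, from the reads) against 8.34 for Trpm7. In 60 mM K+ Trpv4 was at 38.2 RPKM and Stim1 at 46.1. With coding length Pkd2 stood at rank 2 in 5 mM K+. Stim1 stayed at rank 1 and Trpc6 at rank 9 with each of the 3 lengths in both libraries, and Trpv4 stayed at rank 2 in 60 mM K+. The exon-union and coding lengths were tried after the values were seen.

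**Figure D4:**
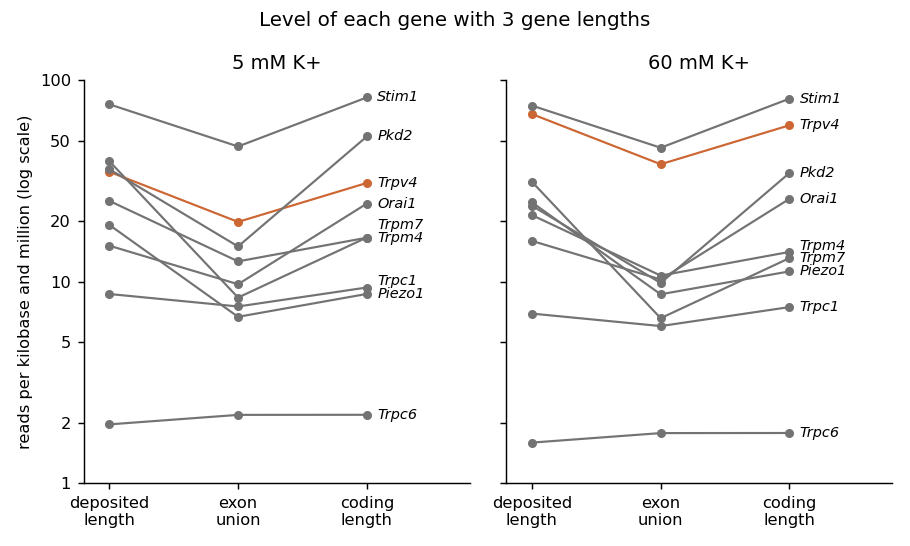
RPKM on a log scale for the 9 channel genes, computed with the length behind the deposited FPKM, the exon union and the coding length of GENCODE vM1, in the 5 mM K+ (left) and 60 mM K+ (right) library. Lines join the values of 1 gene, and the line of Trpv4 is colored. Stim1 is highest and Trpc6 lowest throughout, and the genes between change places, Trpm7 from 39.6 to 8.34 in 5 mM K+.

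Of 28 other channel genes of the same families, 15 had at least 10 reads, of which 6 were above 0 and 9 below, with a median of -0.01. Of the 28, 0 were called in either direction, against 2.11% higher and 1.10% lower of all genes with reads. The list is too short for this count to be set against those shares. Trpv1 at -1.16 (12 and 5 reads), Trpv3 at -2.07 (9 and 2 reads) and Mcoln2 at 1.10 (5 and 10 reads) lay past the fold threshold with intervals that included 0. Trpv4 took 56.2% of the summed FPKM of the 6 TRPV genes in 5 mM K+ and 72.7% in 60 mM K+, while Trpv2, at 0.13 (-0.03 to 0.30), took 42.6% and 27.1%. The fold of Trpv4 was 2.04 times that of Trpv2 (1.77 to 2.35). Of the 30 TRP, polycystin and mucolipin genes together, Trpv4 took 9.05% and 19.9% of the FPKM, and Pkd1 the most, 41.9% and 34.3%. With exon-union lengths the shares were 14.9% and 29.9% for Trpv4 and 25.2% and 18.8% for Pkd1, so that the order of the pair turned in 60 mM K+.

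Within the other families the shares moved less. Trpc1 took 48.1% and 47.0% of the FPKM of the 7 TRPC genes, and Trpc6 took 10.9% and 10.8%. Trpm7 took 59.8% and 58.3% of the TRPM genes and Trpm4 38.0% and 39.9%, an order that turned with exon-union lengths, to 38.4% and 36.9% for Trpm7 and 58.0% and 59.9% for Trpm4. Of the Orai genes, Orai3 took the most, 63.9% in 5 mM K+ and 57.1% in 60 mM K+, and Orai1 took 32.8% and 39.6%. Orai3 had 504 and 424 reads at -0.15 (-0.34 to 0.04), and its fold was 0.740 times that of Orai1 (0.591 to 0.926). Stim1 took 86.5% and 83.2% of the Stim genes, and Stim2, a sensor of smaller store losses, was at 0.56 (0.35 to 0.77) without being called. Trpc7, Trpm1, Trpm8, Trpv5, Trpa1, Pkd2l1 and Mcoln3 had 0 reads in both libraries, where a floor of 3 counts stands for 0.266 CPM in 5 mM K+ and 0.286 CPM in 60 mM K+.

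Proteins that work with these channels were described from 4 lists. These lists are too short for their calls to be set against the 2.11% and 1.10% of all genes called higher and lower. Among 14 partners of store-operated entry, 7 were above 0 and 7 below with a median of 0.04, 1 rose and 1 fell. Homer1, a scaffold of receptors, IP3 receptors and TRPC channels, rose from 200 to 435 reads, at 1.22 (0.98 to 1.47). Cracr2a, a Ca2+-binding regulator of ORAI, fell from 31 to 8 reads, at -1.85 (-3.19 to -0.70), a call lost once a coefficient of variation of 0.1 between libraries was assumed. On the log2(FPKM + 1) scale Cracr2a was at -0.64. The most abundant by reads were Atp2a3 at 0.20, Atp2a2 at 0.16 and Esyt2 at -0.05. Tmem178, at 1.69 with 3 and 9 reads, had an interval that included 0. Saraf, which turns store-operated entry off, was at 0.13, and Stimate, which aids the coupling of STIM to ORAI, at -0.24.

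Of 10 partners of TRPV4, polycystins and Piezo, 9 had at least 10 reads, 5 above and 4 below 0 with a median of 0.15, and 1 rose. This was Tmem120a, a membrane protein reported to act on polycystin-2 and Piezo currents, from 315 to 678 reads at 1.21 (1.01 to 1.40). The most abundant was Rack1, a scaffold protein, with 4211 and 4922 reads at 0.33, and Tmem33 was at -0.02. Pacsin3, which binds TRPV4, had 431 and 531 reads at 0.40 (0.22 to 0.59), and Os9, which acts in TRPV4 maturation, was at 0.18. Of the 11 receptor and phospholipase inputs to TRPC and TRPM4, such as Plcb4 at 0.03, Plcb3 at -0.22 and Gna11 at -0.03, 10 had at least 10 reads, 6 above and 4 below 0 with a median of 0.04, and 0 were called. With total counts Homer1 was at 1.01 and Tmem120a at 0.999, below the threshold. Homer1 lost its call where the interval end had to pass the threshold, and both lost it with an assumed coefficient of variation of 0.2.

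Of 3 endothelial genes downstream of TRPV4 Ca2+ signals, 1 was called higher, Nos3. Of 12 endothelial markers 0 were called higher and 1 lower. Over all genes with reads the shares were 2.11% and 1.10%, and counts from lists this short cannot be set against them. In endothelium TRPV4 Ca2+ signals are known to open the K+ channels encoded by Kcnn3 and Kcnn4 and to act on the nitric oxide synthase encoded by Nos3. Nos3 rose from 1013 to 2025 reads, at 1.10 (0.99 to 1.21), and with total counts was at 0.89, below the threshold. Kcnn4 had 221 and 407 reads at 0.98 without being called. Kcnn3 went the other way, with 405 and 261 reads at -0.53 (-0.76 to -0.30), and was not called. The fold of Trpv4 was 1.04 times that of Nos3 (0.930 to 1.17) and 1.13 times that of Kcnn4 (0.936 to 1.36), both within counting error, 1.26 times that of Cdh5 (1.13 to 1.39) and 1.58 times that of Pecam1 (1.45 to 1.72). These partners were picked for comparison after the values were seen, and each had a log2(fold-change) above 0. Kcnn3, Kdr and the other endothelial markers were not compared with Trpv4 in this way.

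Of the 12 endothelial markers, 10 were above 0 and 2 below, with a median of 0.34 (0.14 with total counts) and a range from -1.10 for Kdr, which was called lower, to 0.83 for Cdh5. Their summed level was 3938 CPM in 5 mM K+ and 5333 CPM in 60 mM K+. With TMM scaling the CPM of all genes sum to 930244 in 5 mM K+ and 1.07e+06 in 60 mM K+. Sums of CPM, here and below, therefore lean toward a rise, and their direction can depend on the scaling. Of 9 smooth muscle markers, 6 were above 0 and 3 below with a median of 0.06, which turned to -0.14 with total counts, from -0.53 for Myocd to 0.40 for Tagln, and a summed level of 38744 and 42433 CPM. Acta2, at 12480 and 12366 FPKM, was the highest of them, while Tagln was listed at 31.0 and 35.5 FPKM. In whole arteries, fewer cells of a type and less RNA per cell cannot be told apart, and the part of endothelial RNA in the difference of Trpv4 was not tested.

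Of the other cell types the wall could hold, 7 of 8 fibroblast markers were below 0 with a median of -0.20, and 10 macrophage markers had a median of -0.01 with summed levels of 59.7 and 58.6 CPM. Of 7 adipocyte markers with at least 10 reads, 5 were below 0 with a median of -0.82, and Adipoq at -1.04 and Plin1 at -2.39 were called lower. Pnpla2 at 0.29 (0.21 to 0.38) and Lep, with 1 and 9 reads at 3.27, were above 0, and the summed level of the list was 328 and 351 CPM. The median was -0.16 for Schwann cell and nerve markers, -0.64 for red blood cell genes and -0.27 for lymphatic endothelial markers, of which 2 were above and 2 below 0. Of these Lyve1 was called lower at -1.13, Pdpn was at 0.85 (0.59 to 1.10), and the summed level was 84.3 and 84.6 CPM. Each of the 7 lymphocyte and 5 mesothelial markers had fewer than 10 reads over both libraries. Of 9 pancreas and intestine genes, 7 had at least 10 reads, 6 above and 1 below 0 with a median of 2.72. Pnlip (2 and 61 reads at 5.03), Cela2a, Ctrb1 and Cpa1, 4 in all, were called higher, against 2.11% of all genes with reads. Lgals4 had 204 and 118 reads at -0.69 (-1.03 to -0.35), and the list stood at 30.1 and 51.7 CPM in sum.

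**Figure D5:**
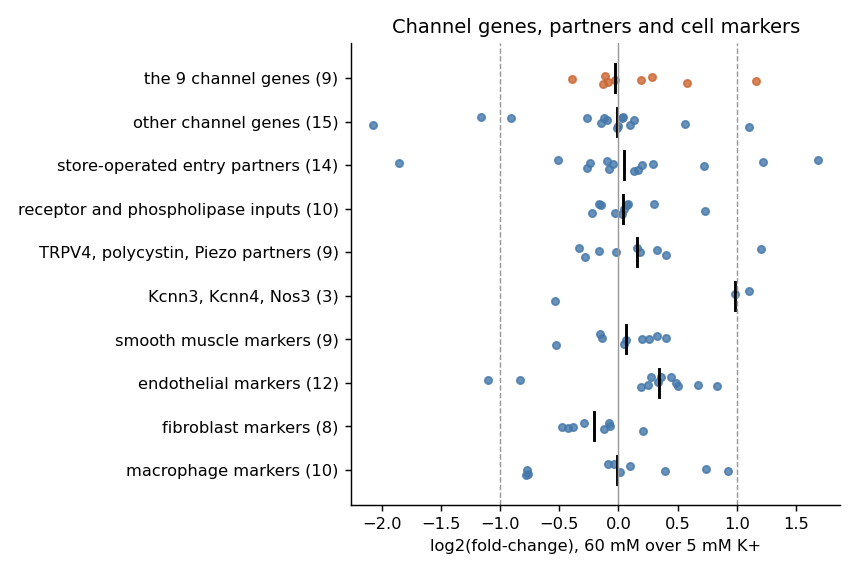
Log2(fold-change), 60 mM over 5 mM K+, of each gene with 10 reads or more over both libraries, for the 9 channel genes, the lists of partners and the markers of 4 cell types, with the number of genes in brackets. Vertical bars are medians and dashed lines mark the threshold of 1. The median is 0.34 for the endothelial markers, -0.03 for the channel genes and 0.06 for the smooth muscle markers, with TMM (-0.14 for the last with total counts).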

How the data were processed

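Poly(A)-selected RNA of mouse mesenteric arteries was sequenced, 1 library per K+ concentration. Per its methods, the study aligned reads to mm9 with TopHat2. The submitters' processing notes name TopHat2 2.0.12, HTSeq 0.6.1 and edgeR 3.0.8, with no roles. The authors deposited raw read counts per gene, and FPKM from the same reads, scaled by total counts. Of 55573 listed identifiers, 32601 (58.7%) are in GENCODE vM1 (mm9), which gave symbols and positions for genes with 99.1% of reads in each library. The annotation used for counting is not given in the sources used here. The listed identifiers go beyond vM1, so its gene lengths, positions and overlaps need not be those of the counted genes.

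Here, TMM factors came from edgeR 4.0.16 (R 4.3.3), and DEGSeq's test by random sampling was rebuilt from the published formula over every gene with reads, with Benjamini-Hochberg adjustment. A count of 0 entered as 0.5. A quasi-likelihood fit in edgeR needs replicates and was not possible. The 95% intervals are exact (Clopper-Pearson) for the share of reads in the 60 mM library, exact Poisson for levels and conditional exact for pairs of genes. The test and the intervals of the folds were tested on simulated data in which the true folds were set. Those data held counting error alone, without variation between libraries and without the TMM step, so they cannot speak to either. The genes named are the 9 channel genes, the 3 largest by reads and every called member of each partner list, markers needed beside a result, and genes overlapping or next to a channel gene. Several partners were named for their role after the values were seen, as were the pairs compared outside the 9 genes and the minimum of 100 reads. Members and lists were chosen with earlier results of these data known. Alternatives covered scaling (DESeq2 1.42.0 for median-of-ratios), low counts, other tests and thresholds, FPKM with a pseudocount, gene length and promoter window. Promoters are from RefSeq (GRCm38.p6). Figures were drawn with matplotlib 3.10.9.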

Additional observations from a re-analysis of the deposited data

How the results depend on the processing

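No paired analysis was possible because K+ concentrations had 1 library apiece, and for the same reason no replicate could be left out. Among the 9 channel genes, 1 was called higher. This was 0 with total counts and 0 with an assumed coefficient of variation between libraries of 0.2 or 0.4 (edgeR's exact test), and Trpv4 was called in the 8 other of 11 alternatives. In 0 of 11 alternatives was a channel gene called lower. Of the partner genes, Homer1 and Tmem120a were called in 8 of 11 alternatives, and Nos3 and Cracr2a in 7. Over all genes, 452 were called higher and 235 lower. With assumed coefficients of variation of 0.1, 0.2 and 0.4, 58, 8 and 0 were called lower, and with 0.2 and 0.4, 65 and 0 were called higher, by construction of a setting that adds variation. With the threshold at the interval end the counts were 261 and 62, with a q-value under 0.05, 506 were called lower, and with total counts 542 were.

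Total counts lower all values by 0.21. Trpv4 then had a log2(fold-change) of 0.95, Piezo1 of 0.37, Stim1 of -0.021, Trpm4 of -0.23, Trpm7 of -0.34 and Pkd2 of -0.60. With FPKM and a pseudocount of 0.1 these were 0.95, 0.37, -0.021, -0.23, -0.34 and -0.60, and with a pseudocount of 1 they were 0.93, 0.35, -0.020, -0.22, -0.33 and -0.58, on the log2(value + pseudocount) scale. These FPKM carry the same total-count scaling. Trpc1, Trpc6 and Orai1 stayed within their counting intervals throughout. Of 98 list medians under alternatives, 79 moved by less than the counting error of a typical gene of the list and 19 by more. The CRE core was in 4 windows with the upstream bases alone. Counting error limits Trpc6 most, with 120 reads in both libraries together.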

Other observations

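IP3 receptors release Ca2+ from the store that STIM proteins sense, and their 3 genes differed in direction. Itpr1 went from 3506 reads in 5 mM K+ to 2291 in 60 mM K+, at -0.51 on the log2 scale with a 95% counting interval of -0.59 to -0.44. Itpr2 had 298 and 458 reads, at 0.72 (0.51 to 0.94), and Itpr3 had 521 and 595 reads, at 0.29 (0.12 to 0.47). None of the 3 was called. Itpr1 took 85.4% of their summed FPKM in 5 mM K+ and 74.2% in 60 mM K+, and the FPKM ratio of Itpr1 to Itpr2 went from 12.2 to 5.19. The fold of Itpr1 was 0.425 times that of Itpr2 (0.363 to 0.498), a ratio that the scaling of the libraries does not change. With total counts all values are lower by 0.21, which turns no sign among the 3. For Itpr3 this shift is larger than the lower end of its interval, 0.12, so that its rise is then within counting error.

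A like contrast was seen between the Piezo genes. The FPKM ratio of Piezo1 to Piezo2 was 5.76 in 5 mM K+ and 16.2 in 60 mM K+, and the fold of Piezo1 was 2.81 times that of Piezo2 (2.05 to 3.87). Piezo2 rests on 137 and 68 reads.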
